A study of Homo sapiens with 2 samples.

Results

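The 39 genes described here encode cytokine and growth factor receptors, and peaks of the transcription factor GFI1 were counted at each of them. They were taken by name from 20037 protein-coding genes, and all 39 were found in the RefSeq gene table of GRCh38.p14 (hg38). A peak belonged to a gene when its midpoint lay inside the gene span or within 10 kb of it, and a second count used 50 kb. The peaks come from chromatin immunoprecipitation sequencing (ChIP-seq) in NB4, an established line of acute promyelocytic leukemia cells. There were 2 libraries, 1 made with antibody ab21061 and 1 with antibody sc8558, each labelled as recognising GFI1. Both came from cultured NB4 cells fixed with formaldehyde. The labels conflict in places: the written protocol speaks of antibodies to the PML/RARα fusion protein, and sc8558 carries a title ending in GFI2. Group names here follow the label of the antibody, which gives GFI1 for both. With 1 library per antibody there is no replicate, no p-value could be computed, and every value describes these libraries.

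GFI1 is a zinc-finger repressor that recruits histone-modifying enzymes to DNA and is known for steering blood progenitors towards neutrophils. Cytokine and growth factor receptors are the membrane proteins through which such progenitors receive signals to survive, divide or mature. Receptor tyrosine kinases carry their own enzyme, type I and type II cytokine receptors signal through JAK kinases and STAT factors, IL-1 and TNF receptors lead to NF-kB, and TGF-beta receptors phosphorylate SMAD proteins.

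The ab21061 list held 7687 peaks and the sc8558 list 7562, with scores from 50.01 to 3100 in both. The score is the authors' value from the peak caller, and it is used only to describe or rank peaks within a list. Sequencing depth is unknown, and the signal of a control was not analysed here. Peak lists do not measure expression, so the cell type label could not be checked against marker genes. A shared region is the merged stretch where peaks of both lists overlap by at least 1 bp. There were 4853 of them.

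The sequence before the gene start is shown for the 3 receptor genes in which peaks of both antibodies covered part of it, since these are the places where the peaks met a promoter. Of 35 receptor genes with start sites in the RefSeq promoter table, these 3 were overlapped by both antibodies within the 250 bases before a listed start, against 281 of 15843 protein-coding genes (1.77%). Capitals mark 6-letter matches on either strand to TGTGGT, the RUNX motif, in IL21R and to GAGGAA, found in sites of PU.1 and other ETS factors, which reads as its reverse complement in IFNGR1. For IL21R the capitals also take in AATCAC, which ends where TGTGGT begins. The 3 sequences, from RefSeq on GRCh38.p14 and read 5′ to 3′ towards the gene, are these.
IFNGR1, chr6:137219386-137219635, minus strand: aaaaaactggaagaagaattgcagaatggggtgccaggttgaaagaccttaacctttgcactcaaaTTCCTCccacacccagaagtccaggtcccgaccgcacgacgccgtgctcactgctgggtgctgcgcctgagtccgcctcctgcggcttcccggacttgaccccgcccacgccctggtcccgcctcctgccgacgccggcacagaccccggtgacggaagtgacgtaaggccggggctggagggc
IL1RAP, chr3:190513835-190514084, plus strand: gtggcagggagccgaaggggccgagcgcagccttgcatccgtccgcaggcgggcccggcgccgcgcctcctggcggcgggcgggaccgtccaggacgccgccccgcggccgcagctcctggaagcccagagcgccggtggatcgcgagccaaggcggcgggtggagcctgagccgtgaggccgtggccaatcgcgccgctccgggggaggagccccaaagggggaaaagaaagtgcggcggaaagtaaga
IL21R, chr16:27427021-27427270, plus strand: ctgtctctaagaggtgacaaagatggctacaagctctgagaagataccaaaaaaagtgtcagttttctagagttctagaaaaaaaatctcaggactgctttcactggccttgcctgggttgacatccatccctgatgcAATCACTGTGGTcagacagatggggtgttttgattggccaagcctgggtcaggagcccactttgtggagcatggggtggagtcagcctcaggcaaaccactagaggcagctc

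The IL21R stretch lay wholly under both peaks, with 250 of 250 bases covered by each. In IFNGR1 and IL1RAP the ab21061 peak covered 133 and 161 bases and the sc8558 peak all 250 bases. The 3 sequences differ in composition. IL1RAP had 74.8% G or C and 33 CpG, IFNGR1 had 63.6% and 19, and IL21R had 49.2% and 0, where the median over all 22199 such windows was 62% and 16. None of the 3 held AAATCA, taken as the core of the GFI1 site, TGANTCA of AP-1 or GATAA of GATA factors. AAATCA was present in 9.14% of all windows and in 19.5% of the 318 windows overlapped by both antibodies. TGTGGT was present in 9.36% of all windows and GAGGAA in 23.7%, and in the windows overlapped by both antibodies these shares were 9.12% and 28.6%. AATCAC, another part of the GFI1 site that was searched after the sequences had been seen, was present in 7.98% of all windows and in 15.7% of those overlapped by both antibodies. These matches are descriptions of letters in a window.

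Regions found by both antibodies lay at many receptor genes, and in several classes. Within 10 kb, 16 of the 39 genes (41%) held a shared region, where 12.8% of all protein-coding genes did. An ab21061 peak was present at 18 genes, against a background of 17.4% of genes, and an sc8558 peak at 17, against 17.8%. The 30 distinct shared regions lay in 3.32 Mb of windows, or 9.04 per Mb, whereas the windows of the other protein-coding genes held 1.86 per Mb. FLT1 and IGF1R together held 12 of these regions, and without them the density was 6.50 per Mb. At least 2 shared regions were present at 7 of the 39 genes (background 2.41%). Inside the span itself 13 genes held a shared region (background 8.35%), and 9 genes held, within 10 kb, a shared region whose scores were at least 100 with each antibody (background 6.29%).

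Long genes offer more room for peaks, so the shares were also set side by side by length. Among genes with spans of 10 to 50 kb, 9 of 19 receptor genes (47.4%) and 9.94% of the other genes held a shared region. Of the 9 receptor genes, IFNAR2, IL10RB, IFNAR1 and IFNGR2 lie in a cluster of 208 kb on chromosome 21. Their windows are not independent, and the region at IFNAR2 was counted for IL10RB too. Between 50 and 150 kb the shares were 5 of 15 (33.3%) and 19.6%. Over 150 kb they were 2 of 3 receptor genes and 30% of the others. Neither of the 2 receptor genes under 10 kb, IL2RG and EPOR, held one, against 5.38% of the others. Members were chosen with earlier results of these data known, and no test was applied to these shares.

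**Figure D1:**
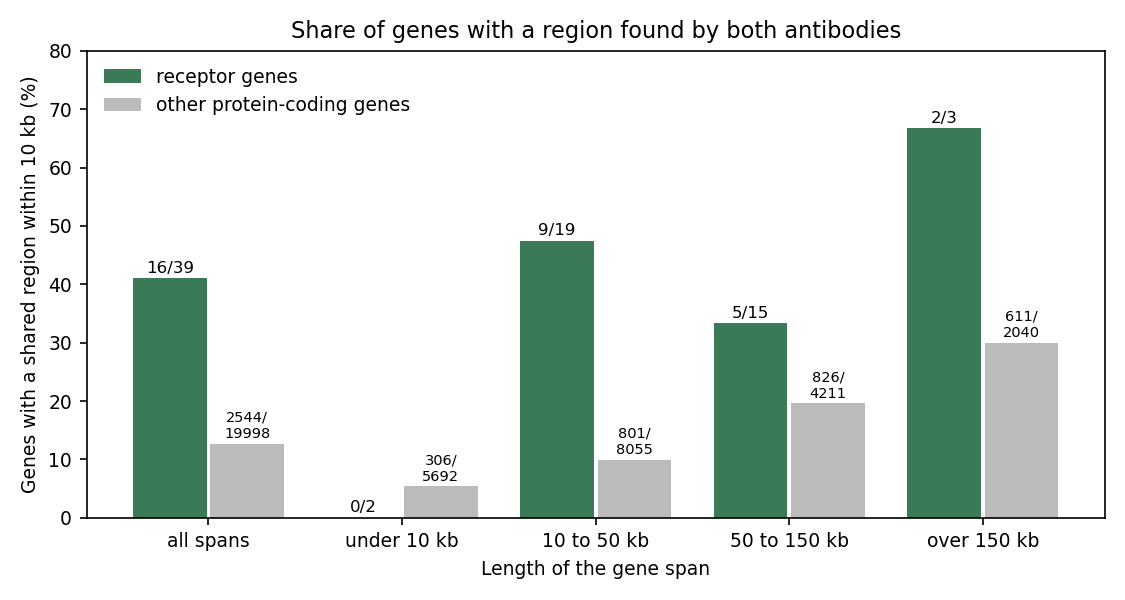
Percent of genes with a region found by both antibodies within 10 kb of the gene span, for receptor genes (green, left) and other protein-coding genes (grey, right), over all spans and by length of the span. Counts stand above the bars. The receptor genes reach 47.4% in the class of 10 to 50 kb, against 9.94% of the other genes, and the class over 150 kb holds 3 receptor genes. The receptor genes with a region in the class of 10 to 50 kb include 4 neighbours on chromosome 21, whose windows are not independent.

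Receptor tyrosine kinase genes held most of the regions. Of 6 genes 4 had shared regions within 10 kb, 16 regions in all, where 12.8% of all protein-coding genes had one. These are long genes, with spans from 60.1 to 316 kb, and the shares of other genes were 19.6% between 50 and 150 kb and 30% over 150 kb. The highest scores of any member were at FLT1 and IGF1R with both antibodies. The other 2, KIT and INSR, had no peak within 50 kb.

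FLT1 encodes a receptor for vascular endothelial growth factor, VEGF receptor 1. Its span on chromosome 13, from 28300346 to 28495128, held 6 ab21061 and 7 sc8558 peaks, and 6 of each formed shared regions. The leading region spanned 28467745 to 28469034, with a score of 740.87 for ab21061 and 764.25 for sc8558, above 98.8% and 99.0% of the peaks of the lists. It lay 26.7 kb inside the gene from its listed start. A region 147 kb from the start scored 367.84 and 358.05, and another, 86.6 kb from it, scored 114.78 and 152.1. The other 3 scored between 51.4 and 140.96 with ab21061 and between 56.25 and 111.76 with sc8558. Both antibodies thus had their 2 highest scores of the gene in the same regions. The remaining sc8558 peak scored 57.59, and the nearest ab21061 peak was 25.2 kb away. Regions per Mb in the FLT1 window were 27.9, against 5.10 between 10 and 500 kb from the span. That flank takes in the shared regions of the member FLT3.

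FLT3 lies 200 kb from FLT1 on the same chromosome and encodes the receptor of FLT3 ligand, a signal for early blood progenitors. A shared region inside the gene (28037026 to 28038018) had scores of 427.01 in the ab21061 list and 278.49 in the sc8558 list and lay 63.1 kb from the listed start. A second region, from 28106470 to 28107608, lay 6.46 kb upstream of the start and scored 114.69 and 127.95. Further sc8558 peaks inside the gene, at 56.15 and 60.49, were not overlapped. The flanks of FLT3, from 10 to 500 kb, held 9 shared regions, or 9.18 per Mb, against 17.0 in its window. Of these 9, 8 are the shared regions within 50 kb of FLT1, so the flank value is not a separate local background.

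IGF1R encodes the receptor of insulin-like growth factors and is the longest of the members, from 98648539 to 98964530 on chromosome 15. It held 6 ab21061 and 7 sc8558 peaks, and 6 of each were shared. All 6 shared regions lay between 151 and 226 kb from the start, so the part of the gene nearer to its start held none. The leading region (98865384 to 98866924) reached 619.78 with ab21061 and 641.7 with sc8558. Next, by the worse of its ranks in the lists, came one from 98799172 to 98800324 with 143.41 and 184.29, and one from 98858338 to 98859031 with 184.68 and 113.91. The other 3 scored from 50.57 to 115.08 with ab21061 and from 69.51 to 155.46 with sc8558. The sc8558 peak without overlap scored 50.36, close to the lowest score of the list. Regions per Mb were 17.9 in the IGF1R window and 1.02 in its flanks. At least 5 shared regions within 10 kb were found at 25 of all protein-coding genes (0.125%), and FLT1 and IGF1R are 2 of these.

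CSF1R, the receptor of macrophage colony-stimulating factor, held 2 shared regions and no other peak, on chromosome 5. The stronger (150066834 to 150068080) had 141.68 with ab21061 and 138.39 with sc8558, 19.1 kb from the nearest listed start. The region from 150058590 to 150059426 scored 67.43 and 96.42. KIT, the receptor of stem cell factor, has a span of 82.8 kb, and the nearest peak of either list was 618 kb away. INSR, the insulin receptor gene, has a span of 182 kb, close to that of FLT1, and its nearest peaks were at 52.2 kb with ab21061 and 52.0 kb with sc8558, just outside the wider window.

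**Figure D2:**
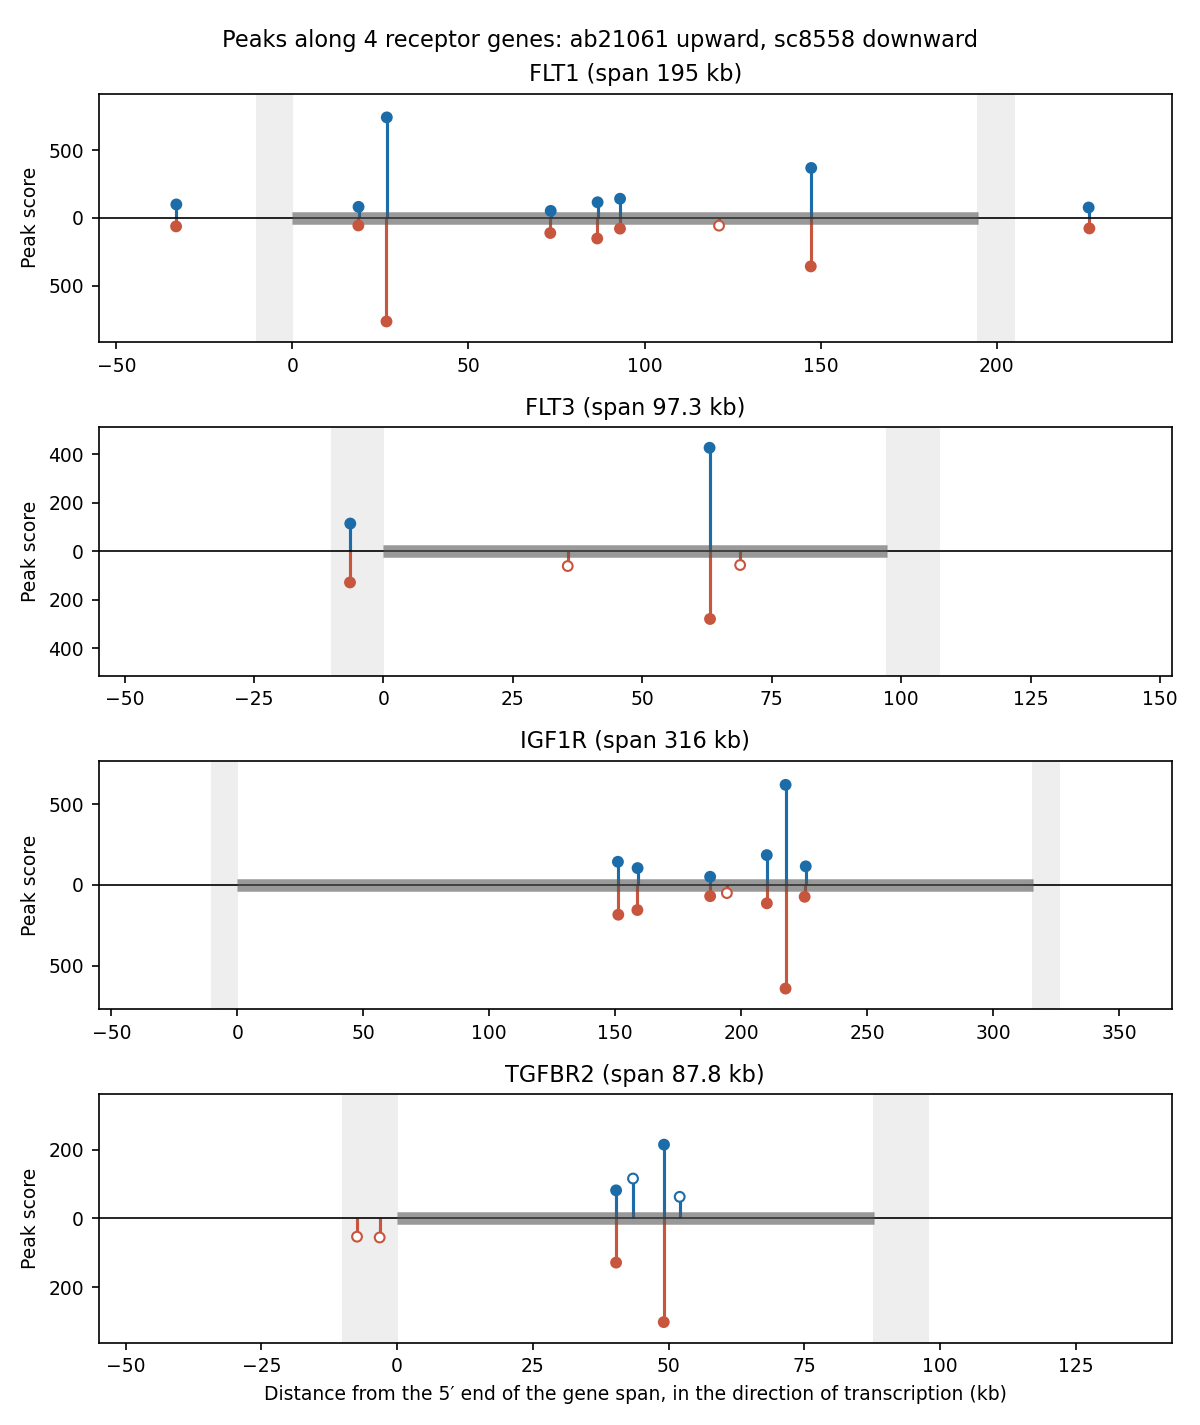
Peaks along FLT1, FLT3, IGF1R and TGFBR2 by distance from the 5′ end of the gene span in kb, with the score of ab21061 peaks upward and of sc8558 peaks downward. Filled heads are overlapped by the other antibody, open heads are not, the dark bar is the gene and light bands are the flanks of 10 kb. The leading peaks of the antibodies stand opposite each other, at 26.7 kb in FLT1, 63.1 kb in FLT3 and 218 kb in IGF1R.

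The genes grouped here as type I cytokine receptors, a class that takes in the chains IL2RA and IL15RA, held few peaks. Of 18 genes 2 (11.1%) had a shared region within 10 kb, close to the 12.8% of all protein-coding genes. Their spans run from 4.17 to 134 kb. IL21R, a receptor chain for IL-21 known from lymphocytes, had a peak of each antibody on chromosome 16, in a region from 27426620 to 27427455, at 79.36 with ab21061 and 167.89 with sc8558. Its midpoint lay 0.234 kb before a listed start that is internal to the gene span, the start whose sequence is given above. IL13RA1, a chain of the receptors for IL-13 and IL-4, had a region on the X chromosome, from 118756024 to 118756833, with scores of 57.21 and 50.81, near the floor of both lists. IL6R, the IL-6 receptor gene, had an ab21061 peak alone, with a score of 60.56, 9.16 kb beyond the gene and nearer to SHE.

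The other type I genes had no peak within 10 kb, among them the receptors that drive granulocyte and erythroid growth. CSF3R, the G-CSF receptor gene, had an sc8558 peak of 54.4 at 15.3 kb. LIFR, the receptor gene of leukemia inhibitory factor, had an sc8558 peak of 56.07 at 48.0 kb. IL6ST, which encodes the shared signalling chain gp130, had an ab21061 peak of 77.54 at 31.4 kb that lay nearer to IL31RA. EPOR, the erythropoietin receptor gene, had a shared region at 39.9 kb with scores of 54.55 and 56.14, nearer to RAB3D. Neither antibody had a peak within 50 kb of CSF2RA, CSF2RB, IL2RA, IL2RB, IL2RG, IL3RA, IL4R, IL5RA, IL7R, IL15RA or OSMR. CSF2RB, the common beta chain of the GM-CSF, IL-3 and IL-5 receptors, was 508 kb from the nearest peak of either list. CSF2RA and IL3RA lie in the part of the X chromosome that Y also carries, and the lowest peak on X began at 9340759 with ab21061 and at 2320612 with sc8558. The sc8558 peak lies within that doubled stretch, which reaches at least to the listed start of CD99 at 2691295, so some reads were placed there. How well reads were placed at CSF2RA and IL3RA was not tested.

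Type II cytokine receptor genes, which serve interferons and IL-10, had shared regions at 5 of 6 members within 10 kb and at all 6 within 50 kb. The shares of all protein-coding genes in these windows were 12.8% and 24.3%. Spans of the 6 genes run from 16.6 to 43.8 kb. Of the 5, 4 lie together on chromosome 21 in a cluster of 208 kb, so their windows are not independent. The cluster held 6 ab21061 peaks, 5 sc8558 peaks and 4 shared regions within 10 kb.

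IFNAR1, a chain of the type I interferon receptor, had the highest scores of the cluster. The region (33360652 to 33362365) had 170.04 with ab21061 and 254.49 with sc8558, 1.64 kb beyond the end of the gene. A neighbouring sc8558 peak of 71.1 had no overlap. In IL10RB, a chain of the IL-10 receptor, a region from 33300550 to 33301803 scored 165.03 and 129.54, inside the gene and 34.8 kb from the start. IFNGR2, a chain of the interferon gamma receptor, had a region from 33401701 to 33402860 that scored 74.59 and 61.64 and ended just before the span of the gene. The region in IFNAR2, from 33261425 to 33262229, had the lowest scores, 64.17 and 53.12. It lies 4.54 kb before IL10RB and was counted for both genes, which are also joined in a read-through gene of the table. Peaks of ab21061 without overlap, at 65.97 and 67.8, were counted for both genes too.

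**Figure D3:**
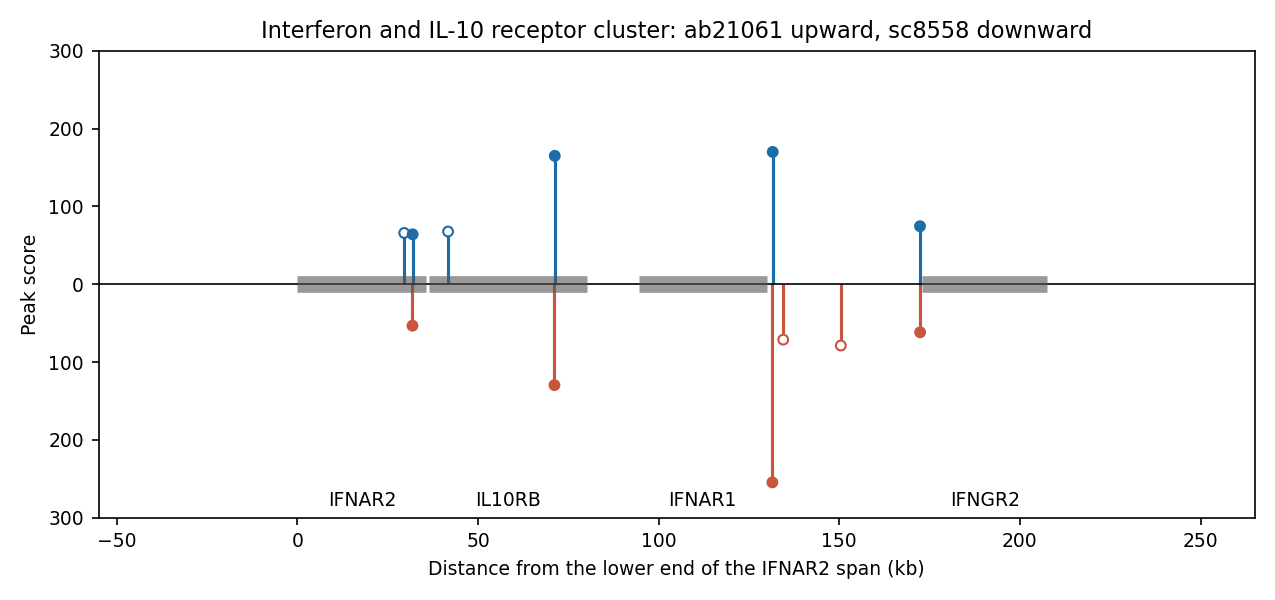
Peaks across the cluster of IFNAR2, IL10RB, IFNAR1 and IFNGR2 by distance from the lower end of the IFNAR2 span in kb, with scores of ab21061 upward and of sc8558 downward. Dark bars are the genes, filled heads are peaks overlapped by the other antibody. The highest pair stands beside IFNAR1, at 170.04 and 254.49.

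IFNGR1, the other chain of the interferon gamma receptor, is on chromosome 6 and had its shared region across the start of the gene, from 137218557 to 137219986, with a midpoint 0.0755 kb from a listed start. It scored 153.89 with ab21061 and 99.62 with sc8558. Upstream, 5.26 kb before the start, an sc8558 peak scored 195.97 and had no ab21061 partner, and it was the highest-scoring peak without overlap at any member. Past 10 kb on that side stood ab21061 peaks of 88.93 and 64.59, again without partners, so the lists differ over this flank. On the other side, regions at 41.4 and 48.7 kb, nearer to IL22RA2, scored 137.39 and 197.49 with ab21061 and 163.38 and 389.78 with sc8558. IL10RA, the ligand-binding chain of the IL-10 receptor on chromosome 11, had no peak within 10 kb. At 12.2 kb it had a shared region, from 117973252 to 117975209, with scores of 249.24 and 320.03. The IL10RA region thus lay just outside the narrower window, as the INSR peaks lay just outside the wider one.

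Of 4 IL-1 family receptor genes, IL18R1 and IL1RAP had shared regions within 10 kb, where 12.8% of all protein-coding genes had one. Spans of the 4 genes run from 36.6 to 146 kb. The shares of other genes were 9.94% between 10 and 50 kb and 19.6% between 50 and 150 kb. IL18R1, a chain of the IL-18 receptor, had a region from 102357452 to 102359043 on chromosome 2, with scores of 300.45 and 311.37, above 93.1% and 93.8% of the lists. It lay inside the gene, 1.96 kb from the nearest listed start. IL1RAP, the chain that IL-1 and IL-33 receptors share, had a region from 190513065 to 190514090 on chromosome 3 whose midpoint was 0.507 kb before the start, with scores of 116.68 and 117.51. A second region 52.6 kb inside the gene scored 104.37 and 79.69. Peaks of 56.76 with ab21061 and 53.07 with sc8558 lay at different places in the gene. IL1R2, the decoy receptor, had an ab21061 peak of 61.99 at 30.0 kb, and IL1R1, the signalling receptor of IL-1, had none within 50 kb.

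Among the 5 members left, with spans from 13.3 to 87.8 kb, 3 had shared regions within 10 kb. Of all protein-coding genes 12.8% had one, and of other genes 9.94% between 10 and 50 kb and 19.6% between 50 and 150 kb. In TGFBR2, which encodes the chain that first binds TGF-beta, the leading region (30655085 to 30655969 on chromosome 3) had 214.42 with ab21061 and 300.92 with sc8558. Another, from 30646273 to 30647124, scored 81.67 and 128.15. Between and beyond them stood ab21061 peaks of 115.97 and 62.88 without overlap, the nearest sc8558 peaks being 2.29 and 2.31 kb away. Upstream of the gene stood sc8558 peaks of 52.86 and 55.2 without overlap. TGFBR1, the partner chain, held a peak of each antibody but at different places, 98.9 with ab21061 and 71.63 with sc8558, 26.9 kb apart, so it had no shared region. IL17RA, the IL-17 receptor gene on chromosome 22, had a region from 17097993 to 17099084 with scores of 85.8 and 144.55. TNFRSF1B, which encodes TNF receptor 2, had a region 5.00 kb before its start with scores of 55.86 and 61.97. TNFRSF1A, which encodes TNF receptor 1, had its nearest peaks at 152 kb with ab21061 and 151 kb with sc8558.

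**Figure D4:**
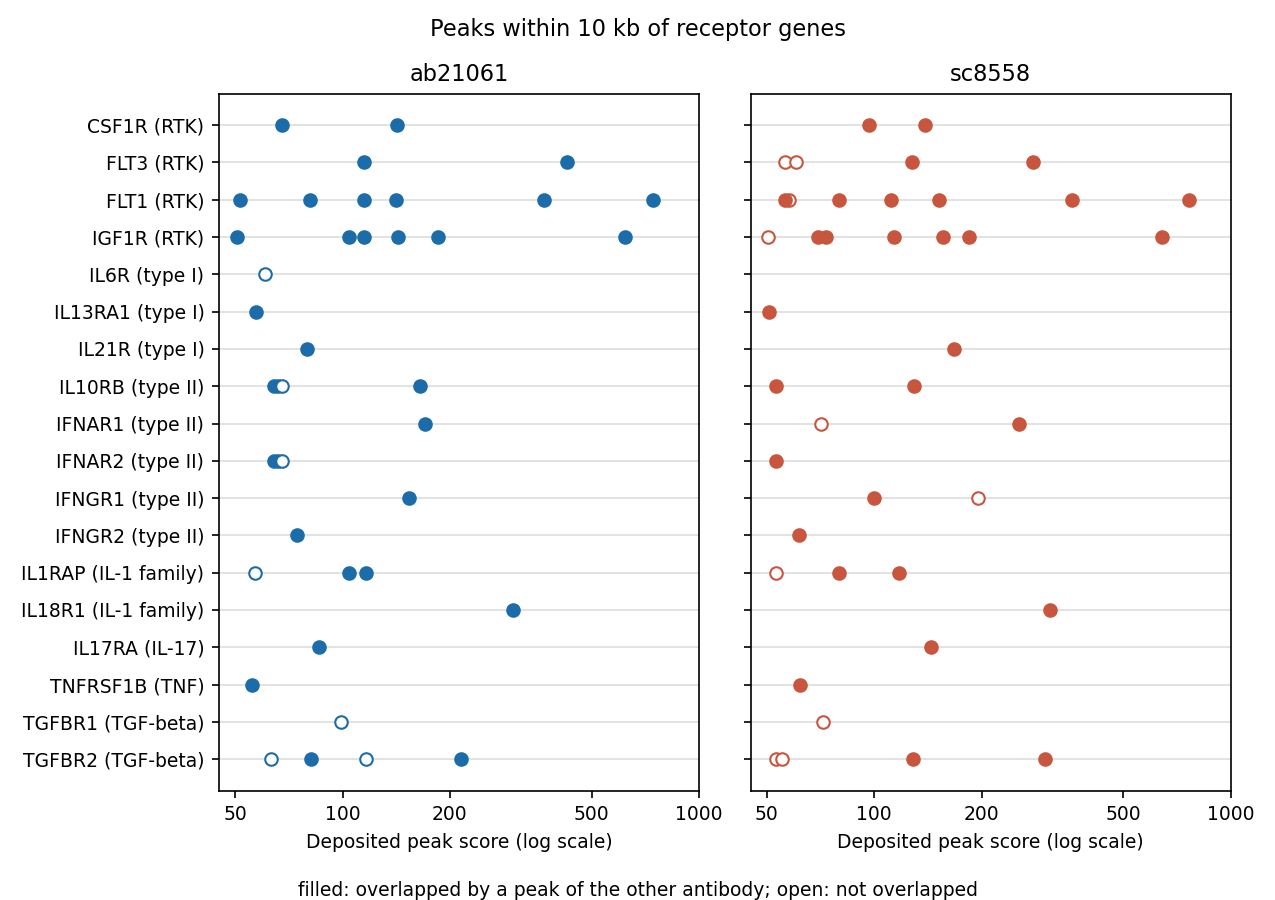
Deposited scores, on a log axis, of all peaks within 10 kb of the 18 receptor genes that had any, for ab21061 on the left and sc8558 on the right, with genes grouped by receptor class (RTK, receptor tyrosine kinase). Filled points are overlapped by a peak of the other antibody. Peaks of FLT1 and IGF1R stand farthest to the right in both panels, and most open points lie below 100.

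The antibodies are the only comparison that the libraries allow. Most peaks were shared at receptor genes, as were most of the other peaks of both lists. Of 37 distinct ab21061 peaks within 10 kb, 30 (81.1%, exact Clopper-Pearson 95% bounds of 64.8 and 92.0) met an sc8558 peak, against 63.6% (62.5 to 64.7) of the other peaks of the list. Of 40 sc8558 peaks, 30 (75.0%, 58.8 to 87.3) were overlapped, against 65.0% (63.9 to 66.1). Intervals cover counting error only and treat peaks as independent, though FLT1 and IGF1R together held 12 of the 30 shared regions. The sc8558 interval includes the share of the other peaks, and the lower bound of the ab21061 interval lies just above it. Since peaks of 1 gene are not independent, that gap cannot be read as a difference between receptor genes and the rest. Within 50 kb the shares were 72.0% (57.5 to 83.8) and 70.6% (56.2 to 82.5), and both intervals include the share of the other peaks. Within 10 kb, 17 genes had peaks of both antibodies, IL6R had ab21061 alone, and no gene had sc8558 alone.

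Peaks without overlap mostly scored below 100. The 7 of ab21061 ran from 56.76 to 115.97 with a median of 66.0, and the 10 of sc8558 ran from 50.36 to 195.97 with a median of 56.9. Those above 100 were the ab21061 peak of 115.97 in TGFBR2 and the sc8558 peak of 195.97 before IFNGR1. In the 30 shared regions the midpoints of the paired peaks were a median of 77.5 bp apart and at most 432 bp, where the median over the other 4823 regions was 67.0 bp. Median scores of the 30 were 115 with ab21061 and 128 with sc8558, against 108 and 106 in the other regions. Scores of at least 100 with each antibody were reached by 15 of the 30 (50%) and by 41.8% of the others. The top 10% of both lists held 5 of the 30 (16.7%) and 12.4% of the others.

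Most of the regions lay inside genes and away from their starts, but the excess of this share over other genes rests on FLT1 and IGF1R. Over receptor genes with listed starts, 3 of 29 pairs of a gene and a shared region (10.3%) had the midpoint within 1 kb of a listed start, 21 (72.4%) lay elsewhere inside the span and 5 (17.2%) outside it. Over other protein-coding genes these were 13.7%, 60.6% and 25.6%. Without FLT1 and IGF1R they were 3 (17.6%), 9 (52.9%) and 5 (29.4%) of 17, a choice made after seeing the data, so that each of the 3 shares then stood on the other side of the share of other genes. By gene, IL1RAP, IL21R and IFNGR1 had a region within 1 kb of a start, 3 of 35, against 2.35% of all genes with listed starts.

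The wider window added few genes. Within 50 kb, 18 of 39 genes had a shared region (46.2%, background 24.3%), IL10RA and EPOR being those added. For spans of 10 to 50 kb these were 10 of 19 receptor genes (52.6%) and 22.7% of other genes. Those 10 include the 4 neighbours on chromosome 21. For spans of 50 to 150 kb the shares were close, 5 of 15 (33.3%) and 30.9%. Under 10 kb they were 1 of 2 and 17.4%, and over 150 kb 2 of 3 and 36.1%. An ab21061 peak was present at 22 genes (background 31.7%) and an sc8558 peak at 21 (background 32.4%). A peak of either list was present at 24 genes (61.5%), against 38.3% of the other protein-coding genes, and 15 genes had none.

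Genes that work with these receptors were counted in the same way. Of 40 genes for JAK, STAT and related signalling, 12 (30.0%) had a shared region within 10 kb, against 12.8% of all protein-coding genes. The 40 genes had a median span of 67.0 kb, against 49.3 kb for the receptor genes and 24.1 kb for all protein-coding genes. For genes outside the receptor list with spans of 50 to 150 kb, the share was 19.6%. The signalling share was not split by length. The best-ranked regions included those at TYK2 (scores 252.18 and 181.58) and JAK1 (174.51 and 154.52), kinases that bind cytokine receptors. They also included those at SMAD2 (186.86 and 159.49) and SMAD3 (168.39 and 98.85), which carry TGF-beta signals, and GAB2 (249.26 and 127.77), an adaptor. The regions at TYK2 and GAB2 lay outside the gene spans, and those at JAK1, SMAD2 and SMAD3 lay inside. Of 39 ligand genes 6 (15.4%) had one, against 12.8% of all protein-coding genes. The ligand genes are short, with a median span of 8.69 kb. Among genes outside the receptor list, the shares were 5.38% under 10 kb and 9.94% between 10 and 50 kb. The ligand share was not split by length. LTA, the lymphotoxin gene, led with 867.63 and 728.43, 12.2 kb before a listed start and within 10 kb of the gene span. IL1A (173.25 and 166.11), IL5 (129.27 and 152.3), IL1RN (86.0 and 126.17) and IL1B (119.44 and 72.44) followed. Of 68 other receptor genes, with a median span of 40.2 kb, 11 (16.2%) had such a region, against 12.8% of all protein-coding genes. The 11 included ACVR2A (402.03 and 256.9), ACVR1B (190.59 and 199.14) and BMPR1A (180.4 and 208.21) of the activin and BMP receptors, and IL31RA (226.89 and 206.3). IL1RL1, the IL-33 receptor gene, was counted through the region inside its neighbour IL18R1. TNFRSF4 and TNFRSF18 were both counted through the same region.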

How the data were processed

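ChIP-seq peak lists of 2 libraries from NB4 cells were used, 1 per antibody. The tools were Bowtie2 2.2.9 and MACS 1.4.2 on build hg38, per the submitters' processing notes. For their options, the control and any filter, the sources used here give nothing. The authors deposited 1 list per library, and each peak's score is the authors' value. How the score scales is not stated in the files, and depth is unknown, so the absence of a peak with 1 antibody cannot be told apart from low depth. Gene spans, listed starts and sequences came from RefSeq (GRCh38.p14). Starts and strand were listed for 35 of 39 members, all except IFNAR2, IL17RA, CSF2RB and IL2RB. Regions other than the promoters were not read as sequence. Receptor classes, members, lists and windows were chosen with earlier results of these data known. Every member is named. Those with over 3 regions are given by the 3 with the best worse rank. Members without a listed start entered no count near starts. Counting was tested on simulated data. Calculations were made in Python 3.11.15 (scipy 1.17.1, pandas 2.3.3, numpy 2.4.6), figures in matplotlib 3.10.9.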

Additional observations from a re-analysis of the deposited data

How the results depend on the processing

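With scores of at least 100, fewer peaks enter and the counts fell. There, 10 members had an ab21061 peak and 9 a shared region within 10 kb, where 6.29% of all protein-coding genes had such a region, and 20 peaks of each list lay within 10 kb. Within 50 kb, 13 members had an ab21061 peak, and 24 peaks of each list were present. By gene, the number of shared regions moved by over 1.5 times at 12 members at that score and at 6 members with a window of 50 kb. The other alternatives (the 5000 highest-scoring peaks of each list, any overlap with the window, peaks given to the nearest gene, gene spans without flanks, overlap of 50% of both peaks) moved no count over all members by over 1.5 times and kept each overlapped share inside its main interval. Members with a shared region, 16 in the main count, were 12 for the highest-scoring peaks (background 9.79%), 13 for gene spans (8.35%) and 16 for the nearest gene (10.9%), 50% overlap (12.4%) and any overlap (13%). Without flanks, single genes changed: FLT3, IL1RAP and IL10RB kept 1 region of 2, and IFNAR1, IFNGR2 and TNFRSF1B had 0 in place of 1. Counting IFNAR2 and IL10RB as 1 gene, chosen after seeing the data, gave 15. The search of shared regions for motifs was not run, since no hg38 genome sequence was at hand and only promoter windows could be read. No paired analysis was possible because each antibody had 1 library, and for the same reason none was left out.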

Other observations

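The IFNGR1 locus held peaks that the antibodies did not share on 1 side and shared peaks on the other. Within 50 kb of the gene there were 5 ab21061 and 4 sc8558 peaks, in 3 shared regions. IFNGR1 is thus the member with the most peaks of a single antibody outside its span. At IL18R1, an ab21061 peak of 112.47 lay 19.9 kb beyond the gene and nearer to IL18RAP, with no sc8558 peak within 54.0 kb. At TNFRSF1B, an sc8558 peak of 141.3 lay 13.7 kb before the gene and nearer to TNFRSF8, with the nearest ab21061 peak 7.76 kb away. These were noticed after the values were seen.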
